A study of Rattus norvegicus with 28 samples.

Results

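The genes described here encode the motor, crosslinking and assembly proteins of the actin cytoskeleton: myosin heavy and light chains, unconventional myosins, tropomyosins, α-actinins, PDZ-LIM proteins, leiomodins, subunits of the Arp2/3 complex, cofilins, diaphanous formins, filamins and talins. They were chosen by gene symbol, as all symbols with the family names Myo, Myh, Myl, Tpm, Actn, Pdlim, Lmod, Arpc, Cfl or Diaph followed by a digit, the filamins, and Tln with a digit. Of 78 symbols that fit, Tpm1, Tpm2, Myl9 and Pdlim7 were left out, which gave 74 genes of the 30178 in the table. The rule itself uses names and no measured value, but it was written with earlier results of these data known.

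Fibroblasts exposed to transforming growth factor β (TGF-β) build thick bundles of actin and myosin, the stress fibres, and pull on the matrix around them, a state called the myofibroblast that is a hallmark of kidney fibrosis. In a stress fibre, bipolar filaments of nonmuscle myosin II slide actin filaments, α-actinin and filamin hold the filaments together, tropomyosin coats them, and talin ties them to integrins at the cell surface. Assembly is shared between the formins, which lengthen straight filaments, and the Arp2/3 complex, which branches them, while cofilin cuts old filaments apart.

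NRK-49F, an established line of rat kidney fibroblasts, was the source of polyadenylated RNA for 8 libraries, 2 in each of 4 groups. The first group received TGF-β in medium with restricted methionine (MetR, 30 uM, where the medium named as its control holds 200 uM). The second received TGF-β and siRNA against Hoxc8, a homeobox transcription factor (siHoxc8), and the third TGF-β alone, while the fourth, the control, received no TGF-β. Below, MetR and siHoxc8 stand for these treatments together with TGF-β. A time of 48 h is labelled for the 6 libraries that received TGF-β, and none for the control. Growth was in 10% serum, with 24 h of starvation in 0.2% serum before 5 ng/uL TGF-β1, the unit as printed in the labels. No control siRNA and no methionine-replete form of the restriction medium are named for the libraries with TGF-β alone, so loss of Hoxc8 and transfection cannot be told apart, and neither can restricted methionine and the change of medium. Separate cultures are not stated for the 2 libraries of a group, so the p-values rest on the spread between these libraries alone, which may be technical.

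Between 15118113 and 20146870 reads per library could be recovered from the values. Levels are in FPKM, fragments scaled to gene length and to library size. Hoxc8 itself was at 0.463 and 0.0771 FPKM with siHoxc8, against 4.32 and 5.01 FPKM with TGF-β alone, a log2 change of -2.17 ± 0.19 (SE; adjusted p = 0.000182). Of 8 fibroblast markers in the table, 6 reached 1 FPKM, Dcn only in replicate 1 of the control, and Thy1 was listed at 0 in every library. The summed level of the 8 was 5808 to 8165 FPKM with TGF-β and MetR, 7395 to 7690.2 FPKM with TGF-β and siHoxc8, 11381 to 12349 FPKM with TGF-β alone and 6726 to 6769.6 FPKM in control cells. Col1a1 and Vim held most of this sum and were higher with TGF-β alone than in control cells. Pdgfra, Pdgfrb, S100a4 and Dcn were lower there, Pdgfra at 8.24 and 8.6 against 29.4 and 25 FPKM, and Fap stayed under 1 FPKM. The 13 skeletal and cardiac muscle markers in the table summed to at most 2.64 FPKM, and the endothelial and leukocyte markers to at most 0.934 and 2.73 FPKM. Epithelial markers reached 646 to 685 FPKM with TGF-β and siHoxc8 and 194 to 255 FPKM in the other groups, nearly all of it Krt8, with Epcam and Umod listed at 0 in every library. The part of any of these in the results was not tested.

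Replicates differed in a way that followed gene length, and this touches the filamins, talins and large myosins. On log2(FPKM + 1), 17 of the 20 tested members of at least 4000 bases were higher in replicate 1 of TGF-β alone, and 17 of the 24 shorter ones were higher in replicate 2. Across the 44 members the difference between these 2 libraries followed length with a Spearman coefficient of -0.80, given as a description since genes of 1 library are not independent. With MetR the coefficient was -0.42, with siHoxc8 -0.14, and in the control -0.11. Over all genes tested it was weaker, at -0.40 with TGF-β alone, -0.11 with MetR, 0.04 with siHoxc8 and -0.06 in the control. The SD between replicates over the members was 0.207 with MetR, 0.158 with siHoxc8, 0.221 with TGF-β alone and 0.074 in the control. Over all genes tested it was 0.307, 0.186, 0.223 and 0.177 in the same order. For several long genes the value after removal of a trend on length is given beside the main one.

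**Figure D1:**
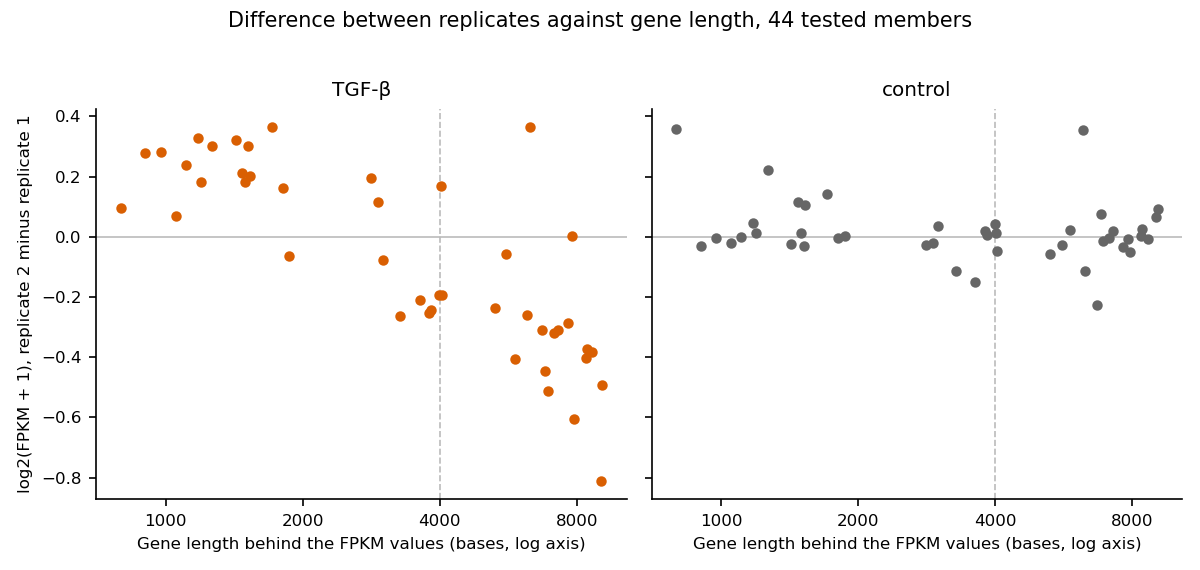
Difference between the 2 replicates of TGF-β alone (left) and of the control (right) in log2(FPKM + 1), against gene length in bases on a log axis, with 1 point for each of the 44 tested members. The dashed line marks 4000 bases, and right of it 17 of 20 members lie below 0 with TGF-β alone.

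Of the 74 genes, 44 had at least 1 FPKM in at least 2 libraries and were tested among 12315 genes, 24 others stayed lower, and 6 were listed at 0 in every library. A total of 42 genes averaged at least 5 FPKM in some group, and 19 at least 100 FPKM. The most abundant per length was Cfl1, which encodes the nonmuscle cofilin, with 1520 FPKM averaged over the 8 libraries, then Myl12a with 628 FPKM and Tpm4 with 562 FPKM. Together the 74 genes held 1.30% and 1.26% of all FPKM with TGF-β and MetR, 1.20% and 1.20% with TGF-β and siHoxc8, 1.72% and 1.69% with TGF-β alone, and 1.18% and 1.18% in control cells. Both libraries with TGF-β alone stood above the other 6. In bulk RNA, fewer cells of a kind and less RNA per cell cannot be told apart.

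With TGF-β the α-actinins, Flna and Flnc, both tropomyosins and 3 of the 4 tested light chains rose, while myosin IIB, talin 2 and a few large myosins fell. Actn1 averaged 297 ± 35.3 FPKM with TGF-β and 98.4 ± 0.353 FPKM in control cells (SD, n = 2 libraries each), a rise of 1.58 ± 0.10 (log2 fold change ± SE of FPKM + 1). Myh10, the heavy chain of nonmuscle myosin IIB, averaged 21.5 ± 3.15 FPKM with TGF-β and 60.9 ± 1.01 FPKM in control cells, a change of -1.47 ± 0.16. In limma, 17 of the 44 tested members were called higher and 8 lower at an adjusted p under 0.05, against 10.3% called higher and 28.6% called lower among all genes tested (25 members and 38.9% in either direction). The median change was 0.17 over the members and -0.19 over all genes, and rescaling the libraries by median ratios, which moved the median of all genes close to 0, gave 21 higher and 5 lower. Here and below, the shares of all genes called are those of the main fit. They are not given for rescaled values or with a library left out. Without replicate 1 of the control 8 members were called higher and 3 lower, and without replicate 2 of the control 9 and 5. The calls that held under every alternative that tested the gene (16 for Myl4 and Myo7a, 17 for the rest) were the rises of Actn1, Myl12a, Myl4, Myl6, Myo1d, Myo7a, Pdlim1 and Tpm4 and the falls of Myh10, Pdlim2 and Tln2.

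With MetR added to TGF-β, both α-actinins, both tropomyosins, Flna and Flnc, the 4 tested PDZ-LIM genes and the membrane-linked myosins Myo1c, Myo1d and Myo1e were lower than with TGF-β alone. Flna averaged 222 ± 31.2 FPKM with TGF-β and MetR and 583 ± 106 FPKM with TGF-β alone, a change of -1.39 ± 0.15, and Myo1c 61.2 ± 10 against 168 ± 21 FPKM, a change of -1.44 ± 0.13. The largest rises were those of Myo7a (1.34 ± 0.25, adjusted p = 0.00362) and of the Arp2/3 subunit Arpc5l (1.26 ± 0.17, adjusted p = 0.000952). Of the 44 members, 18 were called lower and 7 higher, against 19% and 34.8% of all genes (25 members and 53.9% in either direction). The median change was -0.29 over the members and 0.18 over all genes, and rescaling by median ratios gave 26 lower and 2 higher. Rescaling moves all genes, and their shares after it are not given. The rises of Myh10, Myo10, Myo9a and Myo9b did not hold under that rescaling (adjusted p = 0.242, 0.215, 0.168 and 0.251), and leaving out replicate 2 of TGF-β, replicate 1 of TGF-β with siHoxc8 or either control library likewise left 2 members called higher, and leaving out replicate 2 of siHoxc8 left 3.

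With siHoxc8 added to TGF-β, both α-actinins, Flna and Flnc were lower, and 4 Arp2/3 subunits and talin 2 were higher than with TGF-β alone. Pdlim1 averaged 132 ± 6.21 FPKM with TGF-β and siHoxc8 and 509 ± 53 FPKM with TGF-β alone, a change of -1.93 ± 0.11. Arpc1b averaged 697 ± 5.96 FPKM with TGF-β and siHoxc8 and 395 ± 58 FPKM with TGF-β alone, a change of 0.83 ± 0.12. Of the 44 members, 15 were called lower and 10 higher, against 15.7% and 28.1% of all genes (25 members and 43.8% in either direction). The median change was -0.25 over the members and 0.13 over all genes, and rescaling by median ratios gave 22 lower and 7 higher, again without the shares of all genes. Without replicate 1 of TGF-β with siHoxc8 the numbers were 10 lower and 6 higher, and without its replicate 2 they were 11 and 6.

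Since the 3 comparisons share the libraries with TGF-β alone, their values stand side by side and shared calls are listed without a test. Actn1, Actn4, Cfl1, Flna, Flnc, Myl12a, Pdlim1, Pdlim5 and Tpm4 were called higher in the first and lower in the other 2. High values in the libraries with TGF-β alone would by themselves give such calls, and the share of all genes with them is not given. Of the 16 members averaging at least 100 FPKM over all libraries, 13 were called higher and 1 lower with TGF-β over control, where 26.3% and 14.3% of all 834 tested genes of that level were. With MetR over TGF-β alone 0 were called higher and 11 lower, against 21.3% and 41.7% of those genes, and with siHoxc8 over TGF-β alone 2 higher and 11 lower, against 29% and 23.7%. Of the 28 less abundant members, 4 were called higher and 7 lower with TGF-β (9.15% and 29.6% of all genes under 100 FPKM), 7 and 7 with MetR (35.8% and 17.4%), and 8 and 4 with siHoxc8 (28% and 15.1%). The split by level was made after the values were seen, and the shared libraries with TGF-β alone enter all 3 comparisons. They also enter the mean used for the split, for members and all genes alike, so high values there help a gene reach 100 FPKM. Pdlim5, for example, averaged 101 FPKM over all libraries, with 135 FPKM with TGF-β alone and 78.7 to 96.6 FPKM in the other groups. Arpc2, Arpc5, Cfl2, Diaph1, Myh9l1 and Myo19 were called in none of the 3. The libraries of the groups compared did not overlap for 36 members with TGF-β over control (75.7% of all genes), 34 with MetR over TGF-β alone (73% of all genes) and 36 with siHoxc8 over TGF-β alone (76.8% of all genes).

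**Figure D2:**
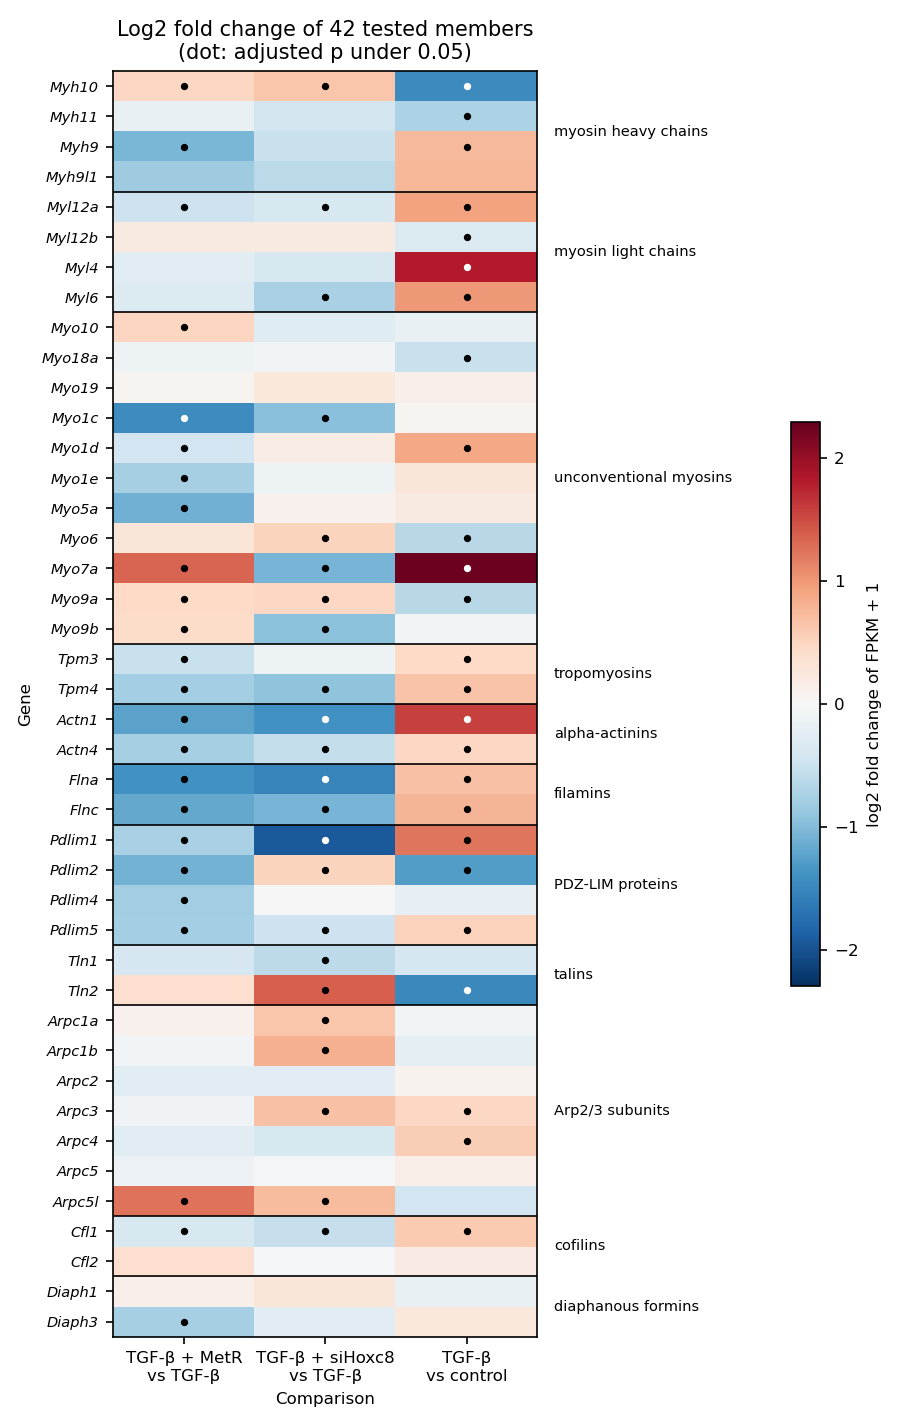
Log2 fold changes of FPKM + 1 for 42 of the 44 tested members (rows, by family) in 3 comparisons (columns), with TGF-β and MetR or siHoxc8 over TGF-β alone and TGF-β over control. Red is higher in the group named first, blue is lower, and a dot marks an adjusted p under 0.05: Actn1 and Pdlim1 are red over control and blue in both other columns, and Arpc1b is red with siHoxc8.

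Nonmuscle myosin II is a hexamer of heavy chains, essential light chains and regulatory light chains. Its heavy chains parted. Myh10 stood at 35 and 25.5 FPKM with MetR, 33.8 and 33.5 FPKM with siHoxc8, 23.7 and 19.2 FPKM with TGF-β alone and 61.6 and 60.2 FPKM in control cells. All 6 libraries with TGF-β lay below both control libraries, and TGF-β alone lay lowest. Myh10 fell with TGF-β over control (-1.47 ± 0.16, adjusted p = 0.000536), was higher with siHoxc8 than with TGF-β alone (0.63 ± 0.16, adjusted p = 0.0152) and was higher with MetR (0.47 ± 0.16, adjusted p = 0.0389). The first of these held under every alternative. The rise with siHoxc8 did not pass after median ratio rescaling (adjusted p = 0.0611), without replicate 2 of TGF-β (0.0895) or without either siHoxc8 library (0.0763 and 0.07), and the rise with MetR shrank to 0.25 without replicate 1 of MetR and did not pass without that library, replicate 2 of TGF-β, or any control or siHoxc8 library (adjusted p = 0.0658 to 0.201).

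The heavy chain of nonmuscle myosin IIA was listed under 2 symbols, Myh9 and Myh9l1, which RefSeq treats as synonyms of 1 gene, so the split of reads between them is uncertain. Summed, they stood at 20.7 and 25.0 FPKM with TGF-β and MetR, 19.1 and 39.2 FPKM with TGF-β and siHoxc8, 38.1 and 47.2 FPKM with TGF-β alone and 24.7 and 23.6 FPKM in control cells. TGF-β alone lay above the control and above MetR with no overlap, while 1 siHoxc8 library lay within the range of TGF-β alone. Myh9l1 held most of the sum and was the only member of at least 5 FPKM whose replicates differed at least 2-fold, with 16 and 37.3 FPKM in the siHoxc8 libraries. Its change with TGF-β over control was 0.76 ± 0.34, adjusted p = 0.11, and leaving out either siHoxc8 library brought the adjusted p to 0.0151 and 0.0153. Listed as Myh9 were 1.35 and 1.49 FPKM with MetR, 3.16 and 1.96 FPKM with siHoxc8, 4.47 and 3.57 FPKM with TGF-β alone and 1.62 and 2.35 FPKM in control cells. These gave 0.75 ± 0.21, adjusted p = 0.0262 for TGF-β over control and -1.05 ± 0.21, adjusted p = 0.00463 for MetR, and the first did not pass without replicate 1 of the control (adjusted p = 0.16), or without either library of TGF-β alone (0.128 and 0.0565).

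Myh11, the smooth muscle heavy chain, stayed low, at 0.696 and 0.564 FPKM with MetR, 0.415 and 0.304 FPKM with siHoxc8, 1.03 and 0.638 FPKM with TGF-β alone and 2.26 and 1.78 FPKM in control cells. Both control libraries lay above the 6 others. Its fall with TGF-β over control was -0.72 ± 0.18, adjusted p = 0.0159 and did not pass without replicate 1 of the control (adjusted p = 0.104), without replicate 2 of TGF-β (0.0823) or after removal of the length trend (0.089). The other 8 of the 12 heavy chains, mostly those of skeletal and cardiac muscle, stayed under 1 FPKM in every library.

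Of the 4 tested light chains, 3 rose with TGF-β and 1 fell. Myl12a, a regulatory light chain, through which phosphorylation switches nonmuscle myosin II on, stood at 585 and 616 FPKM with MetR, 645 and 644 FPKM with siHoxc8, 753 and 916 FPKM with TGF-β alone and 435 and 434 FPKM in control cells. TGF-β alone lay highest, the control lowest, and both combined treatments between them with no overlap. Over control it rose with TGF-β (0.93 ± 0.12, adjusted p = 0.000981) and was lower with MetR (-0.47 ± 0.12, adjusted p = 0.0117) and with siHoxc8 (-0.37 ± 0.12, adjusted p = 0.0379) than with TGF-β alone. The change with siHoxc8 was -0.22 without replicate 2 of TGF-β and did not pass without that library or any control or siHoxc8 library (adjusted p = 0.0864 to 0.162), while the change with MetR turned to 0.06 (adjusted p = 0.531) after quantile normalization. It lay above control with MetR (0.47 ± 0.12, adjusted p = 0.0108), though not without either control library (adjusted p = 0.0695 to 0.0715), and with siHoxc8 (0.57 ± 0.12, adjusted p = 0.00566).

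Myl12b, its close copy and neighbour in the RefSeq gene order, went the other way. It stood at 129.5 and 113 FPKM with MetR, 122 and 121 FPKM with siHoxc8, 99 and 112 FPKM with TGF-β alone and 133 and 134 FPKM in control cells. Both libraries with TGF-β alone lay below both control libraries. The fall with TGF-β was -0.33 ± 0.10, adjusted p = 0.0392, did not pass after median ratio rescaling (adjusted p = 0.452), and did not pass without replicate 1 of TGF-β (0.14), without either control library (0.163 and 0.172) or without either siHoxc8 library (0.0833 and 0.0834). Since the coding regions of this pair are much alike, counting could move reads between them, which was not tested.

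Myl6, the essential light chain of nonmuscle and smooth muscle myosin, stood at 369 and 372 FPKM with MetR, 269.7 and 277 FPKM with siHoxc8, 404 and 521 FPKM with TGF-β alone and 219.9 and 243 FPKM in control cells. TGF-β alone lay highest and the control lowest, with no overlap. Its level rose with TGF-β over control (0.99 ± 0.13, adjusted p = 0.00128) and was lower with siHoxc8 than with TGF-β alone (-0.75 ± 0.13, adjusted p = 0.00343), while the change with MetR was -0.31 ± 0.13, adjusted p = 0.0833 and passed without replicate 1 of TGF-β (0.0103). Myl4, an essential light chain of atrial and embryonic muscle, was low throughout, at 5.8 and 6.19 FPKM with MetR, 5.82 and 4.92 FPKM with siHoxc8, 6.98 and 7.52 FPKM with TGF-β alone and 1.05 and 1.63 FPKM in control cells. All 6 libraries with TGF-β lay above both control libraries, a rise of 1.83 ± 0.16, adjusted p = 0.000221 with TGF-β alone, and its linear ratio of 5.41 rests on 15 and 23 reads in the control libraries. The remaining 5 light chain genes stayed under 1 FPKM.

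Tropomyosins run along the actin filament and govern which myosins and severing proteins reach it. Tpm4 stood at 486 and 464 FPKM with MetR, 432 and 435 FPKM with siHoxc8, 801 and 840.1 FPKM with TGF-β alone and 523 and 515 FPKM in control cells. TGF-β alone lay above every other library, and both combined treatments lay below the control. Tpm4 rose with TGF-β over control (0.66 ± 0.09, adjusted p = 0.00153) and was lower with MetR (-0.79 ± 0.09, adjusted p = 0.000466) and with siHoxc8 (-0.92 ± 0.09, adjusted p = 0.000298) than with TGF-β alone, all of which held under every alternative. Tpm3 stood at 119 and 133 FPKM with MetR, 172 and 159.8 FPKM with siHoxc8, 168 and 192 FPKM with TGF-β alone and 132 and 129 FPKM in control cells. It rose with TGF-β over control (0.45 ± 0.11, adjusted p = 0.0141) and was lower with MetR than with TGF-β alone (-0.51 ± 0.11, adjusted p = 0.00579). With siHoxc8 it overlapped TGF-β alone (-0.11 ± 0.11, adjusted p = 0.424, or 0.0497 after median ratio rescaling). Tested directly, Tpm3 was higher with siHoxc8 than with MetR (0.39 ± 0.11, adjusted p = 0.0168), though not without either siHoxc8 library (adjusted p = 0.121 and 0.0566), and its rise over control did not pass without either control library (adjusted p = 0.083 and 0.0927) or replicate 2 of TGF-β (0.0591).

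The α-actinins bundle actin filaments in stress fibres and at adhesions. Actn1 stood at 127 and 124 FPKM with MetR, 113 and 109.9 FPKM with siHoxc8, 322 and 272 FPKM with TGF-β alone and 98.2 and 98.7 FPKM in control cells. Both libraries with TGF-β alone lay far above the other 6. Over control it rose with TGF-β (1.58 ± 0.10, adjusted p = 7.93e-05, a linear ratio of 3.02) and was lower with MetR (-1.23 ± 0.10, adjusted p = 0.000142) and with siHoxc8 (-1.40 ± 0.10, adjusted p = 8.93e-05), and these calls held under every alternative. Actn4 stood at 159.5 and 157 FPKM with MetR, 185 and 185 FPKM with siHoxc8, 288 and 252 FPKM with TGF-β alone and 189 and 195 FPKM in control cells. It too was highest with TGF-β alone, with no overlap, and both combined treatments lay below the control. The rise over control (0.48 ± 0.10, adjusted p = 0.00696) did not pass without replicate 1 or 2 of the control (adjusted p = 0.0688 and 0.0516) or after quantile normalization (0.0938), while the falls with MetR (-0.76 ± 0.10, adjusted p = 0.000623) and with siHoxc8 (-0.54 ± 0.10, adjusted p = 0.00348) held throughout. Of the α-actinins of striated muscle, Actn2 was listed at 0 in every library and Actn3 at no more than 0.343 FPKM.

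**Figure D3:**
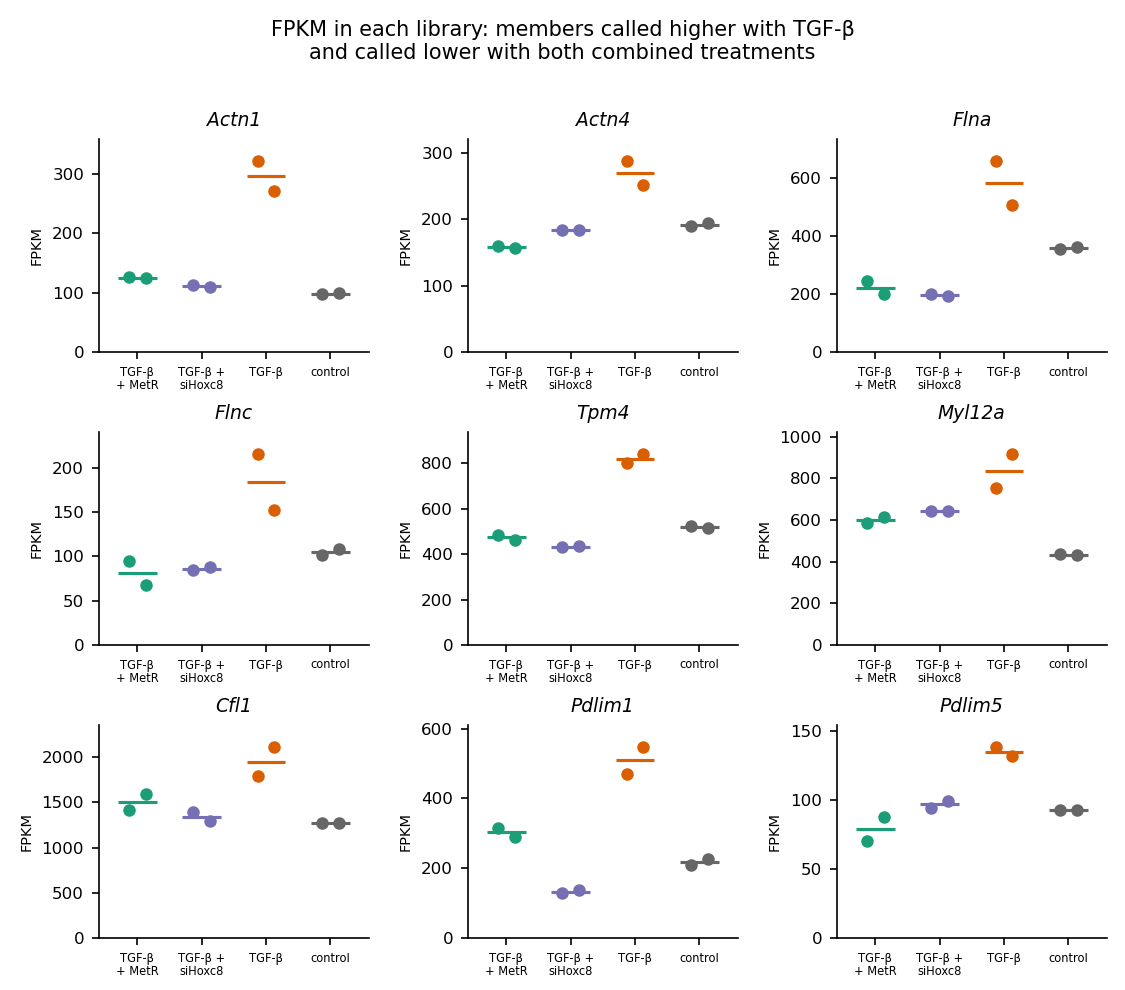
FPKM in each library (points, replicate 1 left of replicate 2) and group means (bars) for 9 members called higher with TGF-β over control and lower with both combined treatments than with TGF-β alone. In Actn1 the libraries with TGF-β alone stand at 322 and 272 FPKM, above all others, while Pdlim1 with siHoxc8 lies below the control.

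Filamins are long, V-shaped crosslinkers that join actin filaments at wide angles and bind integrins and membrane receptors. Flna stood at 244 and 199.7 FPKM with MetR, 201 and 194 FPKM with siHoxc8, 658 and 508 FPKM with TGF-β alone and 357 and 363 FPKM in control cells. TGF-β alone lay highest, and both combined treatments lay below the control with no overlap. Its level rose with TGF-β over control (0.68 ± 0.15, adjusted p = 0.0101), was lower than TGF-β alone with MetR (-1.39 ± 0.15, adjusted p = 0.000338) and with siHoxc8 (-1.54 ± 0.15, adjusted p = 0.000258), and lay below control with MetR (-0.70 ± 0.15, adjusted p = 0.00505) and with siHoxc8 (-0.86 ± 0.15, adjusted p = 0.00263). Flnc, the filamin best known from muscle, stood at 95 and 67.4 FPKM with MetR, 84.1 and 88.4 FPKM with siHoxc8, 215 and 153 FPKM with TGF-β alone and 102 and 109 FPKM in control cells. It rose with TGF-β over control (0.78 ± 0.20, adjusted p = 0.0185) and was lower with MetR (-1.17 ± 0.20, adjusted p = 0.00218) and with siHoxc8 (-1.06 ± 0.20, adjusted p = 0.00428) than with TGF-β alone. The rises of both over control did not pass without either control library (Flna adjusted p = 0.0691 and 0.0606, Flnc 0.102 and 0.074) or after quantile normalization (0.0872 and 0.0619), and that of Flnc did not pass without replicate 1 of TGF-β (0.53, adjusted p = 0.0953).

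The promoters of Flna and Flnc are shown because these filamins moved together, beside that of Myh10, which moved the opposite way, and that of Myo1e. The sequences are the 150 bases before the gene start in RefSeq, assembly GRCr8, read 5′ to 3′ on the strand of the gene, with capitals for the motif GGAATG on either strand, the core bound by TEAD factors, or, in Myo1e, for the CArG box, the site of serum response factor. They lie at chrX:157182344-157182493 on the minus strand for Flna, and on the plus strand at chr4:58999397-58999546 for Flnc, chr10:53893114-53893263 for Myh10 and chr8:79768678-79768827 for Myo1e.
Flna: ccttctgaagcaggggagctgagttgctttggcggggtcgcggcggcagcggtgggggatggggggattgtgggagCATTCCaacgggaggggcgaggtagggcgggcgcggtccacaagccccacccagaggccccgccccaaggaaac
Flnc: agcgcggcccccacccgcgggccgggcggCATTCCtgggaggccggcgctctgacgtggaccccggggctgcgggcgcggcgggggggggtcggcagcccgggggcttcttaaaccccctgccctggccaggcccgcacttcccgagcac
Myh10: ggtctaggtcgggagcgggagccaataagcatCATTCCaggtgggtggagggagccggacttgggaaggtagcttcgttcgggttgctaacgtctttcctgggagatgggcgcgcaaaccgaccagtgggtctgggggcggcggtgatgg
Myo1e: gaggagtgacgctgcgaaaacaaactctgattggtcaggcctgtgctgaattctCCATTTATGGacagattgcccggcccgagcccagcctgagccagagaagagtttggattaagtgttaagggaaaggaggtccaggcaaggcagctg

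In these windows the motif begins 74 bases before the start in Flna, 121 in Flnc and 118 in Myh10, and the CArG box begins 96 bases before the start in Myo1e. RefSeq's promoter table, which runs from 250 bases before to 50 after each start, held 60 of the 74 genes and 36 of the 44 tested. GGAATG was found on either strand in 12 of these 60 promoters (20%), against 13.9% of all 27457 promoters, and the 6 tested members with it were Arpc2, Diaph3, Flna, Flnc, Myh10 and Myo6. With TGF-β over control 2 of those 6 were called higher and 2 lower, where 10.3% and 28.6% of all genes tested were. Arpc2 and Diaph3, which were not called, and Myo6, which was called lower, hold the motif too but are not shown. The CArG box was found in 3 of 60 (5%), against 1.64% of all, and the other members with one, Myh4 and Myl3, were not tested. The SMAD element CAGAC was found in 30 of 60 (50%), against 50% of all, and the AP-1 site, TGACTCA or TGAGTCA, in 0 of 60, against 4.53% of all. No motifs overlapped in the member promoters, and a match marks letters in a window, not a bound site.

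PDZ-LIM proteins dock on α-actinin through their PDZ domain. Pdlim1 stood at 317 and 289.8 FPKM with MetR, 128 and 137 FPKM with siHoxc8, 471 and 546 FPKM with TGF-β alone and 208 and 226 FPKM in control cells. The libraries fell into 4 separate levels: TGF-β alone highest, then MetR, then the control, then siHoxc8. Over control it rose with TGF-β (1.22 ± 0.11, adjusted p = 0.000275) and was lower than TGF-β alone with MetR (-0.74 ± 0.11, adjusted p = 0.00129) and with siHoxc8 (-1.93 ± 0.11, adjusted p = 3.7e-05). Tested directly, it was lower with siHoxc8 than with MetR (-1.19 ± 0.11, adjusted p = 0.000145), and it lay below control with siHoxc8 (-0.71 ± 0.11, adjusted p = 0.00176) but above control with MetR (0.48 ± 0.11, adjusted p = 0.00765). The last did not pass without replicate 1 of the control (adjusted p = 0.0711).

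Pdlim5 stood at 70 and 87.4 FPKM with MetR, 94 and 99.3 FPKM with siHoxc8, 138 and 132 FPKM with TGF-β alone and 92.8 and 93 FPKM in control cells, highest with TGF-β alone and without overlap. It rose over control (0.53 ± 0.12, adjusted p = 0.0103) and was lower with MetR (-0.78 ± 0.12, adjusted p = 0.00131) and with siHoxc8 (-0.48 ± 0.12, adjusted p = 0.0138) than with TGF-β alone. The rise did not pass without either control library (adjusted p = 0.0708 and 0.0675), nor the fall with siHoxc8 without replicate 1 of TGF-β (0.0625) or either siHoxc8 library (0.0949 and 0.0587). Pdlim2, known in mice also as a ubiquitin ligase for nuclear signalling proteins, stood at 3.89 and 2.96 FPKM with MetR, 12.2 and 12.5 FPKM with siHoxc8, 7.75 and 9.06 FPKM with TGF-β alone and 21.1 and 22.7 FPKM in control cells. All 4 groups stood apart, with the control highest and MetR lowest. It fell with TGF-β over control (-1.29 ± 0.14, adjusted p = 0.000508) and further with MetR (-1.09 ± 0.14, adjusted p = 0.00063), and was higher with siHoxc8 than with TGF-β alone (0.51 ± 0.14, adjusted p = 0.0199) and than with MetR (a linear ratio of 3.61, adjusted p = 9.97e-05). The rise over TGF-β alone did not pass without replicate 1 of TGF-β or either siHoxc8 library (adjusted p = 0.0902 to 0.101) or after median ratio rescaling (0.0786). Pdlim4 stood at 34.2 and 25.4 FPKM with MetR, 49.3 and 54.3 FPKM with siHoxc8, 46.6 and 58.7 FPKM with TGF-β alone and 59 and 61 FPKM in control cells. This was lower with MetR than with TGF-β alone (-0.80 ± 0.16, adjusted p = 0.00473) and than with siHoxc8, the difference of siHoxc8 over MetR being 0.79 ± 0.16 (adjusted p = 0.00501).

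Talins couple integrins to actin, and the family parted too. Tln2 stood at 7.15 and 5.37 FPKM with MetR, 14.1 and 12.6 FPKM with siHoxc8, 5.83 and 3.49 FPKM with TGF-β alone and 14.7 and 14.2 FPKM in control cells. The siHoxc8 libraries were near the control, and TGF-β alone and MetR lay below both. Tln2 fell with TGF-β over control (-1.48 ± 0.21, adjusted p = 0.00166), was higher with siHoxc8 than with TGF-β alone (1.37 ± 0.21, adjusted p = 0.00183), and was higher with siHoxc8 than with MetR (0.99 ± 0.21, adjusted p = 0.00557), all of which held under every alternative. Its change with siHoxc8 against control was -0.11 ± 0.21, adjusted p = 0.705, with a 95% interval of -0.59 to 0.38. Tln1 stood at 86.8 and 66.9 FPKM with MetR, 65.9 and 64.6 FPKM with siHoxc8, 114 and 87 FPKM with TGF-β alone and 130.4 and 129.8 FPKM in control cells, with both control libraries above all others. It was below control with MetR (-0.76 ± 0.16, adjusted p = 0.00473) and with siHoxc8 (-0.98 ± 0.16, adjusted p = 0.00198). Its change with TGF-β alone over control was -0.39 ± 0.16, adjusted p = 0.0927, and ran from -0.58 to -0.02 across the alternatives. That change passed without replicate 1 of TGF-β or either MetR library, and under no other alternative. Tln1 was lower with siHoxc8 than with TGF-β alone (-0.60 ± 0.16, adjusted p = 0.0186), which did not pass without replicate 1 of TGF-β (adjusted p = 0.0991) or either siHoxc8 library (0.0806 and 0.0886).

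The Arp2/3 complex joins the actin-related proteins Arp2 and Arp3 to a set of ARPC subunits, of which ARPC1 and ARPC5 come in alternative forms. With siHoxc8, 4 of the 7 ARPC genes were called higher than with TGF-β alone and 0 lower, where 28.1% and 15.7% of all genes were. After median ratio rescaling Arpc2 and Arpc4 were called lower there. Arpc1b stood at 362 and 388 FPKM with MetR, 701 and 693 FPKM with siHoxc8, 354 and 436 FPKM with TGF-β alone and 459 and 449.7 FPKM in control cells. Both siHoxc8 libraries lay far above the other 6. It was higher with siHoxc8 than with TGF-β alone (0.83 ± 0.12, adjusted p = 0.00144), MetR (0.89 ± 0.12, adjusted p = 0.000674) and control (0.62 ± 0.12, adjusted p = 0.00448). Arpc1a, which lies next to Arpc1b in the RefSeq gene order, stood at 65.5 and 72.5 FPKM with MetR, 100.1 and 100.3 FPKM with siHoxc8, 60.4 and 68.7 FPKM with TGF-β alone and 66.8 and 67.4 FPKM in control cells, again with the siHoxc8 libraries apart (0.63 ± 0.10, adjusted p = 0.00211 against TGF-β alone). Arpc3 stood at 102 and 111 FPKM with MetR, 188 and 173 FPKM with siHoxc8, 102 and 124 FPKM with TGF-β alone and 81.9 and 80.1 FPKM in control cells. This was higher with siHoxc8 than with TGF-β alone (0.67 ± 0.12, adjusted p = 0.00304) and control (1.15 ± 0.12, adjusted p = 0.000247). The changes of these 3 against TGF-β alone held under every alternative.

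Arpc5l, an alternative form of ARPC5, was the ARPC gene called with MetR. It stood at 84.1 and 75.5 FPKM with MetR, 46.7 and 63.9 FPKM with siHoxc8, 29.4 and 36.5 FPKM with TGF-β alone and 41.6 and 48.7 FPKM in control cells. MetR lay highest and TGF-β alone lowest, with no overlap. The change with MetR was 1.26 ± 0.17, adjusted p = 0.000952 and held under every alternative, and that with siHoxc8 was 0.72 ± 0.17, adjusted p = 0.0131, which did not pass without replicate 1 of TGF-β (adjusted p = 0.0836) or replicate 2 of siHoxc8 (0.0872). Arpc5 itself stood at 82 and 104 FPKM with MetR, 96.7 and 98.4 FPKM with siHoxc8, 95.5 and 107 FPKM with TGF-β alone and 90.5 and 90.2 FPKM in control cells. Arpc2 stood at 72 and 84 FPKM with MetR, 78.8 and 77.9 FPKM with siHoxc8, 88.3 and 99.4 FPKM with TGF-β alone and 88.6 and 89.4 FPKM in control cells. The 2 had no call in any of the 3 main comparisons. After rescaling by median ratios both were called higher with TGF-β than in control (Arpc2 0.29, adjusted p = 0.0443, Arpc5 0.38, 0.0315). Both were then also lower with MetR than with TGF-β alone (Arpc2 -0.48, adjusted p = 0.00428, Arpc5 -0.34, 0.0333), a call made too without replicate 2 of MetR (adjusted p = 0.0146 and 0.0312). Arpc2 was then lower with siHoxc8 (-0.42, adjusted p = 0.00937), as it was without replicate 1 or 2 of MetR (0.0266 and 0.0267). Arpc4 stood at 171 and 219 FPKM with MetR, 179 and 181 FPKM with siHoxc8, 208 and 260.5 FPKM with TGF-β alone and 157 and 155 FPKM in control cells, with both control libraries lowest. Its level rose with TGF-β over control (0.57 ± 0.15, adjusted p = 0.0193), as did Arpc3 (0.47 ± 0.12, adjusted p = 0.0159), and neither passed without either control library (Arpc4 adjusted p = 0.0938 and 0.101, Arpc3 0.0862 and 0.0976) or without replicate 2 of TGF-β (0.0956 and 0.0606). Against TGF-β alone the change of Arpc4 was -0.27 ± 0.15, adjusted p = 0.164 with MetR and -0.37 ± 0.15, adjusted p = 0.0784 with siHoxc8. Median ratio rescaling gave calls for both (-0.48, adjusted p = 0.0184, and -0.53, 0.0148). So did leaving out replicate 2 of MetR (0.0329 and 0.0291), and the change with siHoxc8 was also called without replicate 1 of MetR or of TGF-β (0.0292 and 0.0432).

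**Figure D4:**
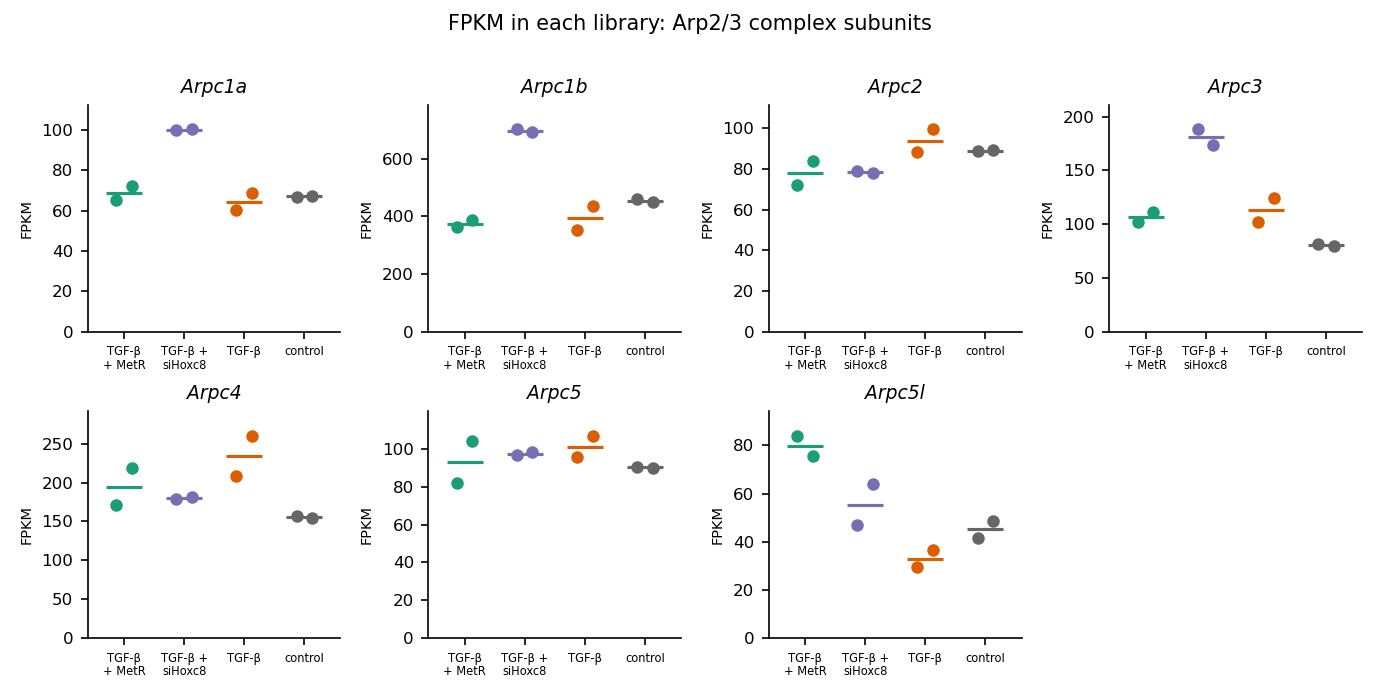
FPKM in each library (points, replicate 1 left of replicate 2) and group means (bars) for the 7 ARPC subunit genes. Arpc1a, Arpc1b and Arpc3 are highest in the siHoxc8 libraries, and Arpc5l is highest with MetR, at 84.1 and 75.5 FPKM.

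Cofilin severs ageing filaments and returns actin to the monomer pool. Cfl1 stood at 1421 and 1597 FPKM with MetR, 1389 and 1299 FPKM with siHoxc8, 1788 and 2110.2 FPKM with TGF-β alone and 1278 and 1276 FPKM in control cells. TGF-β alone lay highest and the control lowest, with no overlap. It rose with TGF-β over control (0.60 ± 0.13, adjusted p = 0.009), and was lower with siHoxc8 (-0.53 ± 0.13, adjusted p = 0.0128) and with MetR (-0.37 ± 0.13, adjusted p = 0.0432) than with TGF-β alone. None of these calls held under every alternative: the rise did not pass without either control library (adjusted p = 0.073 and 0.0716), the fall with siHoxc8 did not pass without either siHoxc8 library (0.0636 and 0.101), and the change with MetR turned to 0.23 after quantile normalization. That change also did not pass without replicate 2 of TGF-β, replicate 1 of MetR, or any control or siHoxc8 library (adjusted p = 0.0888 to 0.14). Cfl2, the muscle cofilin, stood at 41.7 and 62.8 FPKM with MetR, 37.7 and 38 FPKM with siHoxc8, 37.5 and 40.7 FPKM with TGF-β alone and 34.5 and 34 FPKM in control cells. This was not called in these comparisons. Leaving out replicate 1 of MetR, where Cfl2 was lower, gave a rise with MetR over TGF-β alone of 0.67 (adjusted p = 0.000788). Of the diaphanous formins, which lengthen actin filaments, Diaph1 stood at 24.1 and 31.2 FPKM with MetR, 32.4 and 29.6 FPKM with siHoxc8, 25.8 and 24.8 FPKM with TGF-β alone and 28.8 and 28.3 FPKM in control cells. This was not called. Diaph3 stood at 5.57 and 6.88 FPKM with MetR, 8.83 and 9.76 FPKM with siHoxc8, 12.4 and 10.2 FPKM with TGF-β alone and 9.85 and 9.02 FPKM in control cells. This was lower with MetR than with TGF-β alone (-0.77 ± 0.14, adjusted p = 0.00333), with no overlap.

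The 30 members that were not tested held little RNA per length. The highest was Myh4, a fast skeletal muscle heavy chain, at 0.929 FPKM in replicate 1 of TGF-β with siHoxc8. Lmod1, the smooth muscle leiomodin that starts new filaments, stood at 0 and 0.0254 FPKM with MetR, 0.0147 and 0 FPKM with siHoxc8, 0.219 and 0.176 FPKM with TGF-β alone and 0.421 and 0.225 FPKM in control cells, so that all 3 leiomodins stayed under 1 FPKM.

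Unconventional myosins carry cargo and membranes rather than building thick filaments. Of 23 such genes 12 were tested, and the combined treatments divided them. Myo7a, a motor best known from sensory hair cells, stood at 16.7 and 9.55 FPKM with MetR, 1.54 and 1.63 FPKM with siHoxc8, 5.3 and 3.63 FPKM with TGF-β alone and 0.106 and 0.165 FPKM in control cells. All 4 groups stood apart, with 13 and 20 reads in the control libraries. Over control it rose with TGF-β (2.25 ± 0.25, adjusted p = 0.000651), was higher with MetR (1.34 ± 0.25, adjusted p = 0.00362) and lower with siHoxc8 (-1.06 ± 0.25, adjusted p = 0.0127) than with TGF-β alone, and the direct difference of siHoxc8 over MetR was -2.40 ± 0.25, adjusted p = 0.000239. The fall with siHoxc8 did not pass without replicate 1 of TGF-β (adjusted p = 0.0851) or either siHoxc8 library (0.0637 and 0.0535).

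Myo9b, a single-headed motor of class IX, stood at 43.5 and 35.8 FPKM with MetR, 14.5 and 14.8 FPKM with siHoxc8, 32.5 and 26 FPKM with TGF-β alone and 30.4 and 30.8 FPKM in control cells. The siHoxc8 libraries lay lowest and MetR highest, with TGF-β alone and control overlapping between them. Myo9b was lower with siHoxc8 than with TGF-β alone (-0.94 ± 0.14, adjusted p = 0.00142), MetR (-1.37 ± 0.14, adjusted p = 0.000182) and control (-1.01 ± 0.14, adjusted p = 0.000875). Its relative Myo9a stood at 6.58 and 6.11 FPKM with MetR, 6.58 and 6.28 FPKM with siHoxc8, 5.13 and 3.63 FPKM with TGF-β alone and 7.28 and 7.3 FPKM in control cells. This fell with TGF-β over control (-0.64 ± 0.15, adjusted p = 0.0136), though not without either control library (adjusted p = 0.0785 and 0.0766), after median ratio rescaling (0.0583) or after removal of the length trend (0.0774). Against TGF-β alone Myo9a was higher with siHoxc8 (0.48 ± 0.15, adjusted p = 0.0348), by 0.28 without replicate 2 of TGF-β, and not passing without that library or any control or siHoxc8 library (adjusted p = 0.067 to 0.154).

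Class I myosins are single-headed motors that bind membranes. Myo1c stood at 68.2 and 54.1 FPKM with MetR, 86.1 and 83.8 FPKM with siHoxc8, 183 and 153 FPKM with TGF-β alone and 158 and 160.1 FPKM in control cells. TGF-β alone and control overlapped, and both combined treatments lay far below them. It was lower than TGF-β alone with MetR (-1.44 ± 0.13, adjusted p = 0.00021) and with siHoxc8 (-0.97 ± 0.13, adjusted p = 0.00119), and lower than control with MetR (-1.37 ± 0.13, adjusted p = 0.000142) and with siHoxc8 (-0.90 ± 0.13, adjusted p = 0.00141). Myo1e, whose loss in mice and humans injures the podocytes of the kidney, stood at 13 and 12.9 FPKM with MetR, 21.5 and 20.1 FPKM with siHoxc8, 23.4 and 22.1 FPKM with TGF-β alone and 18.4 and 18.9 FPKM in control cells. It was lower with MetR than with TGF-β alone (-0.76 ± 0.09, adjusted p = 0.000562), and higher with siHoxc8 than with MetR (0.64 ± 0.09, adjusted p = 0.000986). Its change with siHoxc8 against TGF-β alone was -0.12 ± 0.09, adjusted p = 0.322, and passed after median ratio rescaling (-0.28, 0.0446).

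Myo1d stood at 57.3 and 41.9 FPKM with MetR, 74.9 and 75.4 FPKM with siHoxc8, 72.4 and 61.3 FPKM with TGF-β alone and 36 and 34.6 FPKM in control cells. All 6 libraries with TGF-β lay above the control. Its level rose with TGF-β over control (0.90 ± 0.15, adjusted p = 0.00356), stayed above control with siHoxc8 (1.07 ± 0.15, adjusted p = 0.00113), and was higher with siHoxc8 than with MetR (0.61 ± 0.15, adjusted p = 0.0119, or 0.0581 and 0.0591 without replicates 1 and 2 of siHoxc8). Its fall with MetR against TGF-β alone (-0.43 ± 0.15, adjusted p = 0.0438) ranged between -0.65 and -0.21 without replicates 1 and 2 of MetR, and it did not pass when any library but replicate 1 of MetR was left out (adjusted p = 0.055 to 0.203).

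Myo5a, a carrier of vesicles and organelles, stood at 11.8 and 9.85 FPKM with MetR, 25.8 and 26.5 FPKM with siHoxc8, 28.1 and 21 FPKM with TGF-β alone and 20.7 and 21.1 FPKM in control cells. The MetR libraries lay lowest, and TGF-β alone overlapped both siHoxc8 and control. It was lower with MetR than with TGF-β alone (-1.10 ± 0.15, adjusted p = 0.000862), and higher with siHoxc8 than with MetR (1.21 ± 0.15, adjusted p = 0.000475). Myo10, the motor of filopodia, stood at 38.2 and 32.8 FPKM with MetR, 21.1 and 19.9 FPKM with siHoxc8, 29.9 and 20.7 FPKM with TGF-β alone and 28.3 and 28 FPKM in control cells. This was lower with siHoxc8 than with MetR (-0.76 ± 0.17, adjusted p = 0.00652). Its change with MetR against TGF-β alone (0.49 ± 0.17, adjusted p = 0.0389) was 0.75 without replicate 1 and 0.24 without replicate 2 of TGF-β, and it did not pass without that library, replicate 1 of MetR, or any control or siHoxc8 library (adjusted p = 0.0633 to 0.173). Myo6, the motor that walks toward the opposite end of the filament, stood at 6.43 and 7.92 FPKM with MetR, 9.09 and 8.05 FPKM with siHoxc8, 5.67 and 5.69 FPKM with TGF-β alone and 9.47 and 9.42 FPKM in control cells. It fell with TGF-β over control (-0.65 ± 0.13, adjusted p = 0.0068) and was higher with siHoxc8 than with TGF-β alone (0.52 ± 0.13, adjusted p = 0.0141). Neither call held after removal of the length trend (adjusted p = 0.181 and 0.108). The fall did not pass without replicate 1 of the control (0.0535), nor the rise without either library of TGF-β alone (0.0537 and 0.052) or replicate 1 of siHoxc8 (0.109). Myo18a stood at 25.9 and 18.7 FPKM with MetR, 23.5 and 22.1 FPKM with siHoxc8, 26.8 and 21.2 FPKM with TGF-β alone and 34.6 and 34.5 FPKM in control cells, with both control libraries above the rest, and its fall with TGF-β (-0.52 ± 0.17, adjusted p = 0.0438) passed neither after median ratio rescaling (adjusted p = 0.235) nor after removal of the length trend (0.321), nor without replicate 2 of TGF-β or any control or siHoxc8 library (0.0733 to 0.216).

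**Figure D5:**
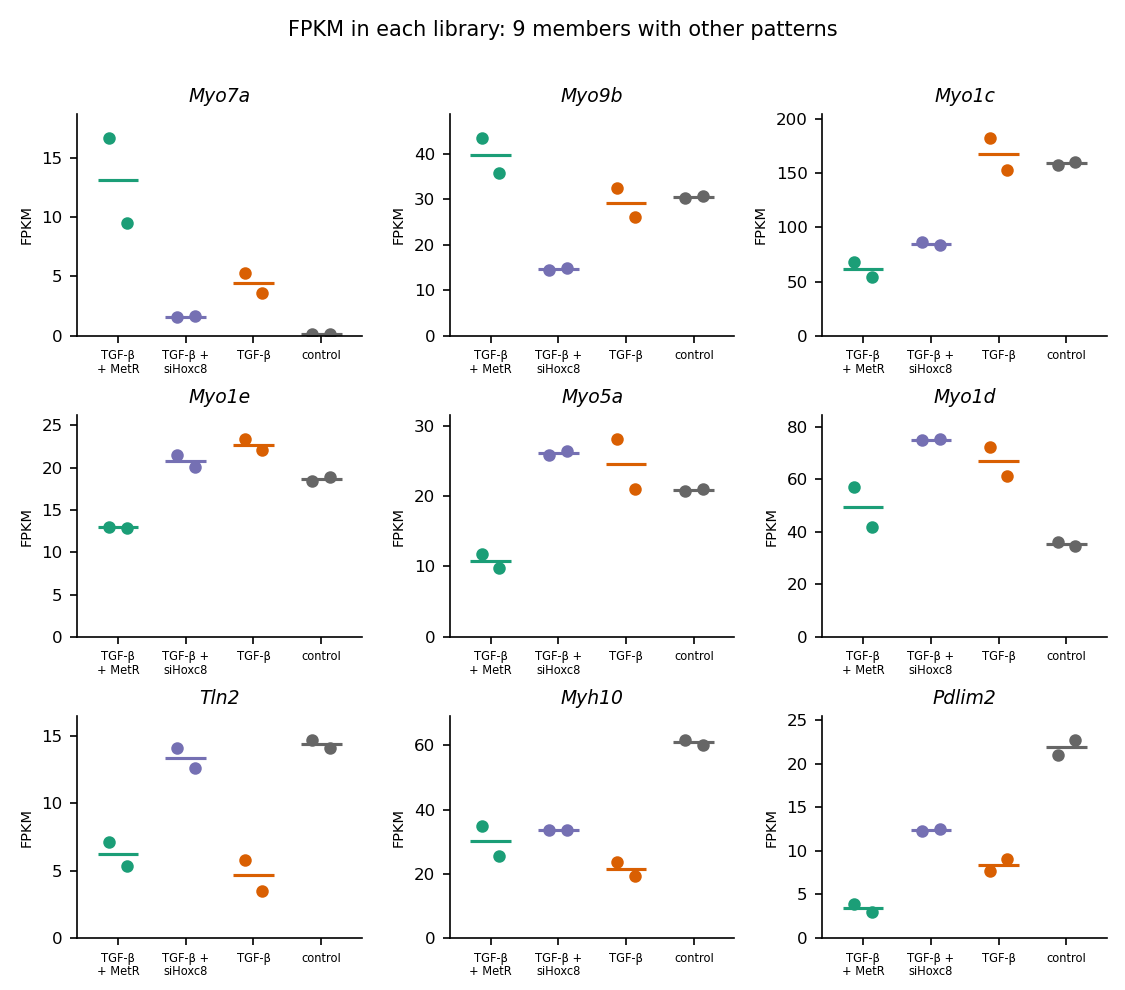
FPKM in each library (points, replicate 1 left of replicate 2) and group means (bars) for 9 members with other patterns than the crosslinkers. Myo7a is highest with MetR at 16.7 and 9.55 FPKM, Myo9b is lowest with siHoxc8, Myo1e and Myo5a are lowest with MetR, and Tln2 with siHoxc8 lies near the control.

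The groups did not overlap for 38 members with MetR over control (79.1% of all genes), 40 with siHoxc8 over control (84% of all genes) and 32 with siHoxc8 over MetR (77% of all genes). Set directly against each other, TGF-β with siHoxc8 over TGF-β with MetR gave 12 members called higher and 6 lower, against 24.9% and 29.3% of all genes (18 members and 54.2% in either direction). The largest rises were those of Pdlim2, Myo5a, Tln2 and Arpc1b, and the largest falls those of Myo7a, Myo9b, Pdlim1 and Myo10, with the values given above. Of the 9 members called higher with TGF-β and lower with both combined treatments, Pdlim1 was called in this comparison, and the differences of the other 8 lay between -0.17 ± 0.10 for Actn1 (95% interval -0.41 to 0.07) and 0.30 ± 0.12 for Pdlim5 (0.03 to 0.57).

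Set against the control, TGF-β with MetR gave 10 members called higher and 15 lower (28% and 29.3% of all genes), and TGF-β with siHoxc8 10 higher and 11 lower (21.7% and 27% of all genes). In either direction these were 25 members against 57.3% of all genes, and 21 members against 48.7%. Without replicate 1 or 2 of the control, 4 and 5 members were called higher with MetR. Above control with MetR the largest named here were Myo7a (3.59 ± 0.25), Myl4 (1.59 ± 0.16), Arpc5l (0.81 ± 0.17) and Myl6 (0.68 ± 0.13), and below it Pdlim2 (-2.38 ± 0.14), Myo1c and Tln2 (-1.10 ± 0.21). Above control with siHoxc8 the largest named here were Myl4 (1.45 ± 0.16), Myo7a (1.19 ± 0.25), Arpc3 and Myo1d, and below it Myo9b and Tln1, and Myh11 (-1.15 ± 0.18), which is under 5 FPKM. For Actn1 the level with TGF-β and siHoxc8 against control differed by 0.18 ± 0.10 (95% interval -0.06 to 0.42) and for Actn4 by -0.06 ± 0.10 (-0.28 to 0.17), neither called. With MetR against control Actn1 was called higher (0.35 ± 0.10, adjusted p = 0.0214) and Actn4 lower (-0.28 ± 0.10, adjusted p = 0.0378). Neither of these calls held under every alternative.

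Genes that work beside these families were read from 4 lists, by counts alone, beside the shares of all genes called higher and lower, which were 10.3% and 28.6% with TGF-β over control, 34.8% and 19% with MetR over TGF-β alone, and 28.1% and 15.7% with siHoxc8 over TGF-β alone. Of 12 smooth muscle contractile genes, which include the 4 symbols left out above, 9 were tested, and Myl9 was not among them. Of these 9, 7 were called higher and 0 lower with TGF-β, 1 higher and 6 lower with MetR, and 1 higher and 6 lower with siHoxc8. Acta2, the smooth muscle actin, stood at 47.3 and 29.2 FPKM with MetR, 24.3 and 21.6 FPKM with siHoxc8, 527 and 550.5 FPKM with TGF-β alone and 12.5 and 11.3 FPKM in control cells. The actin-binding Cald1 stood at 185 and 142 FPKM with MetR, 179 and 188 FPKM with siHoxc8, 665 and 625 FPKM with TGF-β alone and 139 and 137 FPKM in control cells. Both were highest with TGF-β alone with no overlap, and rose over control by 5.39 ± 0.20 and 2.22 ± 0.13 (adjusted p = 1.18e-05 and 6.52e-05). The median change of the list was 1.49, -1.32 and -1.36 in the 3 main comparisons, against -0.19, 0.18 and 0.13 over all genes.

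Of 18 tested actins, monomer-binding and filament-end proteins, 10 were called higher and 1 lower with TGF-β, 1 higher and 12 lower with MetR, and 3 higher and 9 lower with siHoxc8, with medians of 0.46, -0.49 and -0.31. Actg1, a cytoplasmic actin, stood at 2465 and 2743 FPKM with MetR, 2042 and 2186 FPKM with siHoxc8, 3502 and 3861 FPKM with TGF-β alone and 1856 and 1821 FPKM in control cells. This rose with TGF-β by 1.00 ± 0.12 (adjusted p = 0.000921). Dstn, the third member of the cofilin family, stood at 189 and 197 FPKM with MetR, 182 and 174 FPKM with siHoxc8, 385 and 461 FPKM with TGF-β alone and 278 and 278 FPKM in control cells. This was lower than TGF-β alone with MetR (-1.12 ± 0.11, adjusted p = 0.00023) and with siHoxc8 (-1.24 ± 0.11, adjusted p = 0.000172). Of 30 focal adhesion adaptors, 15 were called higher and 8 lower with TGF-β, 7 and 11 with MetR, and 4 and 18 with siHoxc8, with medians of 0.55, -0.30 and -0.50. Tgfb1i1, an adaptor of the paxillin family, stood at 37.2 and 35.4 FPKM with MetR, 13.3 and 13.8 FPKM with siHoxc8, 86.6 and 97 FPKM with TGF-β alone and 48.3 and 47.9 FPKM in control cells. This was lower with MetR (-1.31 ± 0.09, adjusted p = 9.05e-05) and with siHoxc8 (-2.67 ± 0.09, adjusted p = 1.43e-05) than with TGF-β alone.

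Of 22 other nucleators, Arp2/3 partners and bundlers, 7 were called higher and 7 lower with TGF-β, 6 and 5 with MetR, and 7 and 3 with siHoxc8, with medians of -0.18, -0.08 and -0.03. Actr2, which encodes Arp2 itself, stood at 142 and 175 FPKM with MetR, 246 and 247 FPKM with siHoxc8, 123 and 123 FPKM with TGF-β alone and 103 and 100.2 FPKM in control cells. Both siHoxc8 libraries lay above all others (1.00 ± 0.11, adjusted p = 0.000484 against TGF-β alone). Actr3, which encodes Arp3, did not show this rise. Its siHoxc8 libraries lay just below those with TGF-β alone and above the control. It stood at 145 and 191 FPKM with MetR, 242 and 237 FPKM with siHoxc8, 250 and 284 FPKM with TGF-β alone and 189 and 182 FPKM in control cells. The formins Fmnl2 and Fmnl3 and the bundler Fscn1 were also higher with siHoxc8 than with TGF-β alone (1.17 ± 0.14, 1.18 ± 0.10 and 1.04 ± 0.09, adjusted p = 0.000687, 0.000146 and 0.000166).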

How the data were processed

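The values are FPKM per gene, deposited by the authors as 1 table with 8 RNA columns. The submitters' processing notes list Trim Galore, Bowtie2 2.3.5.1, deepTools, featureCounts and the build rn6, without roles; neither annotation nor strand setting is given in the sources used here, and the 20 chromatin immunoprecipitation and input samples of the 28 in the series were not analysed here. FPKM divides by library size, so it measures shares of RNA. Whole reads were recovered from the steps in the FPKM values for 100% of 19435 genes (tolerance 0.02 reads) and used for depth and for 1 alternative.

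Values were taken as log2(FPKM + 1), which understates changes of low genes, over the 12315 genes that reached 1 FPKM in 2 or more libraries. Limma 3.58.1 in R 4.3.3, with a trended prior, fitted all 4 groups of 2 libraries together, and p-values were adjusted by Benjamini and Hochberg over all 12315 genes, with a threshold of 0.05. The script was tested on simulated data. Named genes are a fixed set of 24 plus called members with at least 5 FPKM and no overlap (up to 12 in each direction for main comparisons and 4 for others), members whose replicates differed at least 2-fold, and up to 4 called genes per other list by size. The members and lists were chosen with earlier results of these data known. Alternatives were another pseudocount (0.1), other filters (none, or a mean of 5 FPKM), median ratio and quantile scaling, limma-voom on the recovered reads, a replicate block, separate fits, removal of a length trend, and leaving out each library. Some results are not reported here. A planned comparison of protein sequences was not run.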

Additional observations from a re-analysis of the deposited data

How the results depend on the processing

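Each count and each named gene was recomputed under 17 alternatives. The shares of all genes called under them are not given, so the counts below concern the members alone. Calls in either direction that held throughout numbered 11 of 25 for TGF-β over control, 16 of 25 for MetR over TGF-β alone, 15 of 25 for siHoxc8 over TGF-β alone, 15 of 25 for MetR over control, 16 of 21 for siHoxc8 over control and 12 of 18 for siHoxc8 over MetR. Members called higher with MetR than with TGF-β alone, 7 in the report, numbered 3 without a filter on low values, 2 after median ratio rescaling, 4 after quantile normalization, 2 in a fit on the 2 groups alone and 2 with the length trend removed, an alternative chosen after seeing the data. Members called lower with TGF-β than in control, 8 in the report, numbered 5 after median ratio rescaling, 5 after quantile normalization and 3 with the length trend removed. With the length trend removed, 23 were called lower with siHoxc8 than with TGF-β alone. In a fit on the 2 groups alone, 16 were called higher with siHoxc8 than in control. Leaving out 1 library gave 8 to 18 members higher and 3 to 10 lower for TGF-β over control, 2 to 7 and 16 to 20 for MetR over TGF-β alone, 6 to 11 and 10 to 17 for siHoxc8 over TGF-β alone, 4 to 12 and 11 to 16 for MetR over control, 7 to 11 and 9 to 12 for siHoxc8 over control, and 9 to 14 and 4 to 7 for siHoxc8 over MetR. Quantile normalization reversed 5 values: MetR over TGF-β alone gave 0.30 for Arpc1b (adjusted p = 0.0138), 0.23 for Cfl1 (0.0401) and 0.0594 for Myl12a (0.531), MetR over control gave 0.26 for Tpm4 (0.0468), and siHoxc8 over MetR gave -0.48 for Myl12a (0.00144). The cause was not tested. Where a fit leaves a group with 1 library, that library is assumed to vary like the others.

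By replicate number, deviations of same-numbered libraries correlated between -0.02 and 0.202, the highest between TGF-β alone and MetR. In both of these groups the difference between replicates followed gene length, and whether same-numbered libraries shared their handling was not tested. With the number as a replicate block, members called higher and lower were 17 and 7 for TGF-β over control, 7 and 20 for MetR over TGF-β alone, 10 and 15 for siHoxc8 over TGF-β alone, 11 and 13 for MetR over control, 9 and 11 for siHoxc8 over control, and 13 and 6 for siHoxc8 over MetR. With 2 libraries a group the spread is poorly known, and members under 1 FPKM were not tested.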

Other observations

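Myh4, a fast skeletal muscle heavy chain too low to be tested, was picked out after its values were seen. It held 244 and 181 reads with TGF-β and MetR, 255 and 213 reads with TGF-β and siHoxc8, 3 and 9 reads with TGF-β alone, and 1 and 4 reads in control cells. The length behind its FPKM values was 18168 bases, against 6043 for Myh3 and 5931 for Myh7, which lowers its FPKM for the same reads. Per length these were 0.667 and 0.57 FPKM with MetR, 0.929 and 0.646 FPKM with siHoxc8, 0.0102 and 0.0302 FPKM with TGF-β alone and 0.00307 and 0.0124 FPKM in control cells. Both combined treatments lay above both other groups in every library. The 13 skeletal and cardiac muscle markers summed to at most 2.64 FPKM in any library, and overlapping or antisense transcripts at this locus were not examined.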
